A study of Mus musculus with 6 samples.

Results

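Fc receptors are the proteins by which blood cells bind the constant part of antibodies, and 7 of their genes were followed here in RNA sequencing of common dendritic cell progenitors (CDPs), bone marrow cells from which dendritic cells develop. The 7 genes are those whose symbol in the deposited tables is Fcgr1, Fcgr2b, Fcgr3, Fcgr4, Fcer1g, Fcer1a or Fcrla, out of 16135 genes listed in at least 1 library. The CDPs came from the bone marrow of wildtype C57BL/6 mice aged 6 to 8 weeks and were sorted by flow cytometry on 2 surface proteins into 3 subsets of 2 libraries each: CD115+Ly6C+, CD115+Ly6C- and CD115-Ly6C-. CD115 binds macrophage colony-stimulating factor, and Ly6C is found on monocytes and their precursors. No treatment or engineered allele is named for any subset, so the comparisons are between subsets of untreated wildtype cells. The labels do not tie the 2 libraries of a subset to separate animals or sorts, and the p-values below therefore measure only the spread between these libraries, which may be technical.

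Receptors for immunoglobulin G (IgG) are either activating or inhibitory. The activating receptors made by Fcgr1, Fcgr3 and Fcgr4, and the receptor for immunoglobulin E (IgE) that contains the product of Fcer1a, bind antibody with their own chain but signal through a shared small partner, the gamma chain made by Fcer1g. The gamma chain carries an immunoreceptor tyrosine-based activation motif (ITAM), which recruits the kinase Syk once its tyrosines are phosphorylated. Fcgr2b makes the inhibitory IgG receptor, whose tail carries an inhibitory motif (ITIM) that recruits the phosphatase SHIP-1. Fcrla makes an Fc receptor-like protein that stays inside the cell and is known from B cells. On myeloid progenitors these receptors are best known from sorting, since the antibody commonly used to gate such cells binds the products of both Fcgr3 and Fcgr2b.

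The signalling stretches of the shared chain and of the inhibitory IgG receptor are shown because they hold the motifs for which these 2 members are known. Both are coding sequence read 5′ to 3′ on the minus strand of chromosome 1 from the GENCODE transcripts of GRCm38, with the tyrosine codons of the motif in capitals. The Fcer1g stretch covers codons 65 to 79 and lies across exons 4 and 5 (chr1:171229889-171230072, intron included). The Fcgr2b stretch covers codons 264 to 281 and lies across exons 6 and 7 (chr1:170961053-170961201, intron included).
Fcer1g ITAM: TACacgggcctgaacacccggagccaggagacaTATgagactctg
Fcgr2b ITIM: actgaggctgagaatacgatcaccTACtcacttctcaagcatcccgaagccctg
A search of the 7 coding sequences found the ITAM pattern in 1, Fcer1g. The shorter ITIM pattern occurred in 5 of the 7, including the activating Fcgr1 and Fcgr4, so a match to its letters is a description and not a working site.

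The libraries held between 17961541 and 19450329 expected counts and between 13307 and 14127 genes each. The genes of the sorted proteins followed the labels: Csf1r, which encodes CD115, had 552.8 and 530.8 CPM (counts relative to the library's total after TMM scaling, on the usual CPM scale) in CD115+Ly6C+ libraries, 413.5 and 512.4 CPM in CD115+Ly6C- libraries, and 213 and 259 CPM in CD115-Ly6C- libraries, so its transcript was present in the CD115- cells too. Ly6c2, which encodes Ly6C, had 1438 and 1400 CPM in CD115+Ly6C+ libraries, 121 and 188 CPM in CD115+Ly6C- libraries, and 41.8 and 61.8 CPM in CD115-Ly6C- libraries. Flt3, the cytokine receptor that defines dendritic cell progenitors, was present in every library, with 373 and 342 CPM in CD115+Ly6C+ libraries, 666 and 657 CPM in CD115+Ly6C- libraries, and 1139 and 1063 CPM in CD115-Ly6C- libraries. Kit, a receptor of early progenitors, was likewise present, between 48.9 and 189 CPM.

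All 7 Fc receptor genes passed the filter on low counts, but not on the same footing. Fcer1g, Fcgr3, Fcgr2b and Fcrla reached the filter's level in all 6 libraries. Fcgr4 reached it in the 2 CD115+Ly6C+ libraries alone, Fcgr1 in these and 1 CD115+Ly6C- library, and Fcer1a in 1 library of each CD115+ subset. A gene that passes only where it is high has to differ. The calls of Fcgr4, Fcgr1 and Fcer1a, and the counts and medians over the 7, are therefore given as a description and support nothing. In CD115+Ly6C+ over CD115-Ly6C- cells, 6 were higher and 1, Fcrla, was lower (edgeR adjusted p under 0.05), with a median log2 fold change over the 7 of 3.53, which is the value of Fcgr1. Of the 4 genes that reached the level everywhere, 3 were higher and 1 lower. Of all 12127 genes tested in that comparison, 19.2% were called higher and 20.1% lower, with a median of -0.03. In CD115+Ly6C+ over CD115+Ly6C- cells, 4 were higher (Fcer1g, Fcgr3, Fcgr4 and Fcgr2b) and 0 were lower, with a median of 0.97, against 5.26% of all genes called higher, 4.34% called lower and a median of -0.01. In CD115+Ly6C- over CD115-Ly6C- cells, 3 were higher (Fcer1g, Fcgr3 and Fcgr2b) and 1, Fcrla, was lower, with a median of 1.22, against 6.78% of all genes called higher, 8.43% called lower and a median of -0.02. The 3 comparisons share libraries and are not independent of each other. Without 1 library at a time, the number called was 5 to 7 in the first of these comparisons, 1 to 4 in the second and 2 to 4 in the third, and the libraries that end a call are named with each gene.

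**Figure D1:**
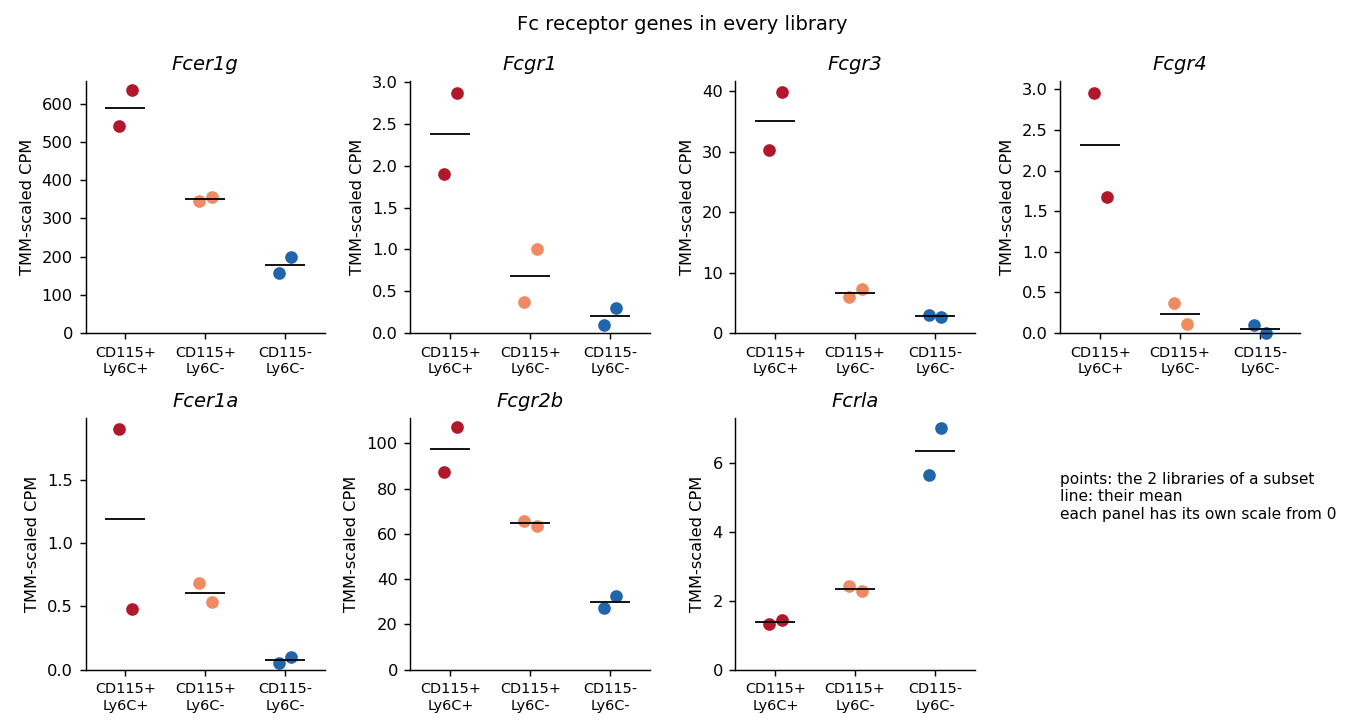
TMM-scaled CPM of each of the 7 Fc receptor genes, with 1 point for each library, a line at the mean of the 2 libraries of a subset, and a separate scale from 0 in each panel. For 6 genes the highest mean is in CD115+Ly6C+ and the lowest in CD115-Ly6C-, Fcrla runs the other way, and the 2 CD115+Ly6C+ libraries of Fcer1a lie on either side of the CD115+Ly6C- libraries.

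Fcer1g, the shared gamma chain, was by far the most abundant of the 7. Its gene lies on chromosome 1 (GRCm38, chr1:171229572-171234349). Per length, it had 1017 and 1159 FPKM in CD115+Ly6C+ libraries, 675 and 698 FPKM in CD115+Ly6C- libraries, and 335 and 416 FPKM in CD115-Ly6C- libraries. No libraries of different subsets overlapped, and in every library Fcer1g lay above at least 98.0% of the genes listed there. Its level was 589 ± 66.0 CPM in CD115+Ly6C+ cells, 351 ± 8.32 CPM in CD115+Ly6C- cells and 178 ± 30.8 CPM in CD115-Ly6C- cells (mean ± SD, n = 2). Fcer1g was 3.31-fold higher in CD115+Ly6C+ cells than in CD115-Ly6C- cells (log2 fold change 1.73, SE 0.14, edgeR adjusted p = 7.65e-05) and 1.97-fold higher in CD115+Ly6C- cells than in CD115-Ly6C- cells (0.98, SE 0.14, edgeR adjusted p = 0.00373). Both calls held in all 16 alternative settings. Between the 2 CD115+ subsets it was 1.68-fold higher in CD115+Ly6C+ cells (0.75, SE 0.14, edgeR adjusted p = 0.0171), and this call was lost without CD115+Ly6C+ replicate 2 (adjusted p = 0.0927), CD115+Ly6C- replicate 1 (0.122) or CD115+Ly6C- replicate 2 (0.0754), and with limma on log2(FPKM + 1) without a filter (0.0762). As these are bulk libraries, a smaller share of expressing cells and less RNA per cell cannot be told apart, here or for any gene below.

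Fcgr3, the low-affinity activating IgG receptor, had the smallest p-value of the 7 between the 2 CD115+ subsets. Its gene (chr1:171051169-171065915) had 24.6 and 31.5 FPKM in CD115+Ly6C+ libraries, 4.97 and 6.15 FPKM in CD115+Ly6C- libraries, and 2.80 and 2.37 FPKM in CD115-Ly6C- libraries. The CD115+Ly6C+ libraries stood far above the other 4, and no subsets overlapped. Fcgr3 was 5.32-fold higher in CD115+Ly6C+ cells than in CD115+Ly6C- cells (log2 fold change 2.41, SE 0.22, edgeR adjusted p = 0.000987), and its p-value was the 30th smallest of all genes tested there. It was 12.4-fold higher in CD115+Ly6C+ cells than in CD115-Ly6C- cells (3.63, SE 0.24, edgeR adjusted p = 2.86e-05). Both calls held in all 16 alternatives. In CD115+Ly6C- cells it was 2.33-fold higher than in CD115-Ly6C- cells (1.22, SE 0.24, edgeR adjusted p = 0.0133), and that call was lost without CD115+Ly6C- replicate 2 (adjusted p = 0.0632) or CD115-Ly6C- replicate 1 (0.0511), and with limma on log2(FPKM + 1) without a filter (0.0521).

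Fcgr1 and Fcgr4, the other 2 activating IgG receptors, were rare transcripts. Fcgr1, the high-affinity receptor (chr3:96282909-96293969), had 34 and 48 expected counts in CD115+Ly6C+ libraries, 7 and 19 in CD115+Ly6C- libraries, and 2 and 6 in CD115-Ly6C- libraries. The subsets did not overlap, but the 2 libraries of each lower subset differed widely from each other. Fcgr1 was called only between the outermost subsets, where it was 11.6-fold higher in CD115+Ly6C+ cells than in CD115-Ly6C- cells (log2 fold change 3.53, SE 0.80, edgeR adjusted p = 0.00897). Without CD115-Ly6C- replicate 1 that call was lost (adjusted p = 0.0575), and leaving out 1 library at a time gave log2 fold changes of 2.96 to 4.48. The neighbouring comparisons gave 1.78 (SE 0.70, edgeR adjusted p = 0.139) for CD115+Ly6C+ over CD115+Ly6C- and 1.75 (SE 0.84, edgeR adjusted p = 0.189) for CD115+Ly6C- over CD115-Ly6C- cells.

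Fcgr4, an activating receptor of mature monocytes, macrophages and neutrophils that binds mouse IgG2a and IgG2b (chr1:171018926-171029761), had 53 and 28 expected counts in CD115+Ly6C+ libraries, 7 and 2 in CD115+Ly6C- libraries, and 2 and 0 in CD115-Ly6C- libraries. Most of its reads were thus in the CD115+Ly6C+ libraries. With 81 counts against 2, scaled for depth, the ratio of CD115+Ly6C+ to CD115-Ly6C- was 46.8, with an exact 95% interval of 12.5 to 393 that covers counting error only. This difference was called in the main fit (edgeR adjusted p = 0.00470). Fcgr4 reached the filter's level in the CD115+Ly6C+ libraries alone, so the call is a description and adds no support. Its fitted log2 fold change was 5.36 (SE 1.05), and 8.43 without CD115-Ly6C- replicate 1, which leaves that subset with 0 counts. Between the 2 CD115+ subsets the log2 fold change was 3.25 (SE 0.86, edgeR adjusted p = 0.0495), and the call was lost without any 1 of the 4 libraries compared (adjusted p = 0.103 to 0.173), with scaling by library totals (0.0522), and with limma on log2(FPKM + 1) without a filter (0.0513), where the log2 fold change was 1.29. For CD115+Ly6C- over CD115-Ly6C- cells, 9 counts against 2 gave a ratio of 4.75 with an interval of 0.982 to 45.1 (log2 fold change 2.10, SE 1.25, edgeR adjusted p = 0.286), so no difference was detectable at this depth.

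Fcer1a, the IgE-binding chain of the high-affinity IgE receptor (chr1:173221269-173227232), had 34 and 8 expected counts in CD115+Ly6C+ libraries, 13 and 10 in CD115+Ly6C- libraries, and 1 and 2 in CD115-Ly6C- libraries. The 2 CD115+ subsets overlapped, because 1 CD115+Ly6C+ library was the highest of the 6 and the other lay below both CD115+Ly6C- libraries. Between them the log2 fold change was 0.97 (SE 0.78, edgeR adjusted p = 0.456), and it turned to -0.34 without CD115+Ly6C+ replicate 1. Against CD115-Ly6C- cells, 42 counts in CD115+Ly6C+ cells stood against 3, a depth-scaled ratio of 16.2 with an exact 95% counting interval of 5.16 to 81.5 (log2 fold change 3.88, SE 1.01, edgeR adjusted p = 0.0162). That call was lost without CD115+Ly6C+ replicate 1 (2.57, adjusted p = 0.124), CD115-Ly6C- replicate 1 (0.0942) or CD115-Ly6C- replicate 2 (0.0624), and with limma on log2(FPKM + 1) without a filter (adjusted p = 0.0808). For CD115+Ly6C- over CD115-Ly6C- cells, 23 counts against 3 gave a ratio of 8.09 with an interval of 2.44 to 42.1, which did not pass across genes (2.91, SE 1.05, edgeR adjusted p = 0.0955). Ms4a2, the beta chain of the same IgE receptor, was looked at after its values were seen. It had 2.84 and 1.26 CPM in CD115+Ly6C+ libraries, 0.157 and 1.01 CPM in CD115+Ly6C- libraries, and 1.06 and 1.05 CPM in CD115-Ly6C- libraries, and passed in none of the 3 comparisons (edgeR adjusted p = 0.186, 0.520 and 0.349).

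Fcgr2b, the inhibitory IgG receptor (chr1:170960558-170976071), was the second most abundant of the 7. It had 61.8 and 74.4 FPKM in CD115+Ly6C+ libraries, 48.0 and 47.0 FPKM in CD115+Ly6C- libraries, and 21.7 and 25.7 FPKM in CD115-Ly6C- libraries, with no overlap between subsets. Both CD115+ subsets were above the CD115-Ly6C- subset: 3.26-fold for CD115+Ly6C+ cells (log2 fold change 1.70, SE 0.15, edgeR adjusted p = 0.000101) and 2.17-fold for CD115+Ly6C- cells (1.12, SE 0.15, edgeR adjusted p = 0.00308). These 2 calls held in all 16 alternatives. The CD115+Ly6C+ subset was 1.5-fold above the CD115+Ly6C- subset (0.59, SE 0.15, edgeR adjusted p = 0.0410), a call that was lost without any 1 of the 4 libraries compared (adjusted p = 0.0521 to 0.185) and with limma on log2(FPKM + 1) without a filter (0.101).

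Fcrla, the Fc receptor-like gene of B cells (chr1:170917594-170932216), ran the other way. It had 0.86 and 0.90 FPKM in CD115+Ly6C+ libraries, 1.60 and 1.53 FPKM in CD115+Ly6C- libraries, and 4.14 and 5.01 FPKM in CD115-Ly6C- libraries. The subsets did not overlap, and the 2 libraries of each subset lay close together. It was lower in CD115+Ly6C+ cells than in CD115-Ly6C- cells by a log2 fold change of -2.18 (SE 0.36, edgeR adjusted p = 0.00203), or 4.55-fold, in all 16 alternatives as well. Its level in CD115+Ly6C- cells was lower than in CD115-Ly6C- cells by -1.43 (SE 0.34, edgeR adjusted p = 0.0277), a call lost without any 1 of the 4 libraries compared (adjusted p = 0.0903 to 0.131). CD115+Ly6C+ over CD115+Ly6C- cells gave -0.76 (SE 0.37, edgeR adjusted p = 0.22).

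**Figure D2:**
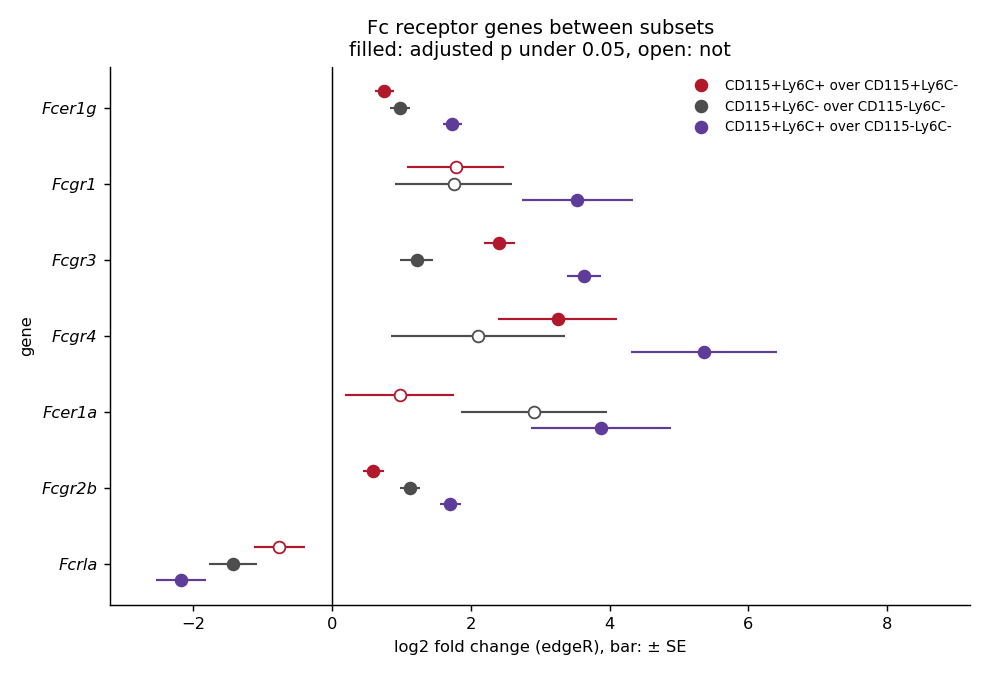
Log2 fold change of each Fc receptor gene from edgeR in the 3 comparisons, with bars of 1 SE and filled points for an adjusted p under 0.05. Every gene has a filled point for CD115+Ly6C+ over CD115-Ly6C-, from -2.18 for Fcrla to 5.36 for Fcgr4, and the bars are widest for the rare transcripts Fcgr1, Fcgr4 and Fcer1a.

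The 2 abundant IgG receptors appeared to divide their change differently over the 2 neighbouring comparisons, and that difference was tested after the values were seen. The log2 fold change of CD115+Ly6C+ over CD115+Ly6C- cells minus that of CD115+Ly6C- over CD115-Ly6C- cells was 1.19 for Fcgr3 (SE 0.40, edgeR adjusted p = 0.242) and -0.53 for Fcgr2b (SE 0.25, edgeR adjusted p = 0.357). None of the 7 genes passed this test, against 0.0495% of all genes tested. The sizes of the neighbouring differences are therefore not shown to differ for any Fc receptor gene.

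The balance of activating to inhibitory IgG receptor transcripts was read within each library, where both values share their depth. The FPKM ratio of Fcgr3 to Fcgr2b was 0.398 and 0.423 in CD115+Ly6C+ libraries, 0.104 and 0.131 in CD115+Ly6C- libraries, and 0.129 and 0.0922 in CD115-Ly6C- libraries. The CD115+Ly6C+ libraries thus stood apart from the other 4, whose subsets overlapped, while Fcgr2b remained the more abundant in all 6 libraries. Summing Fcgr1, Fcgr3 and Fcgr4 over Fcgr2b gave 0.453 and 0.457 in CD115+Ly6C+ libraries, 0.114 and 0.142 in CD115+Ly6C- libraries, and 0.136 and 0.0973 in CD115-Ly6C- libraries. Fcgr3 made up between 88.0% and 94.9% of the activating sum. Fcer1g was above the sum of the 4 antibody-binding chains that pair with it (Fcgr1, Fcgr3, Fcgr4 and Fcer1a) in every library, at 33.8 and 33.6 times the sum in CD115+Ly6C+ libraries, 108 and 95.8 times in CD115+Ly6C- libraries, and 111 and 159 times in CD115-Ly6C- libraries. Differences in these ratios were not tested, and an exact two-sided permutation test of 2 libraries against 2 cannot go below 0.333.

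**Figure D3:**
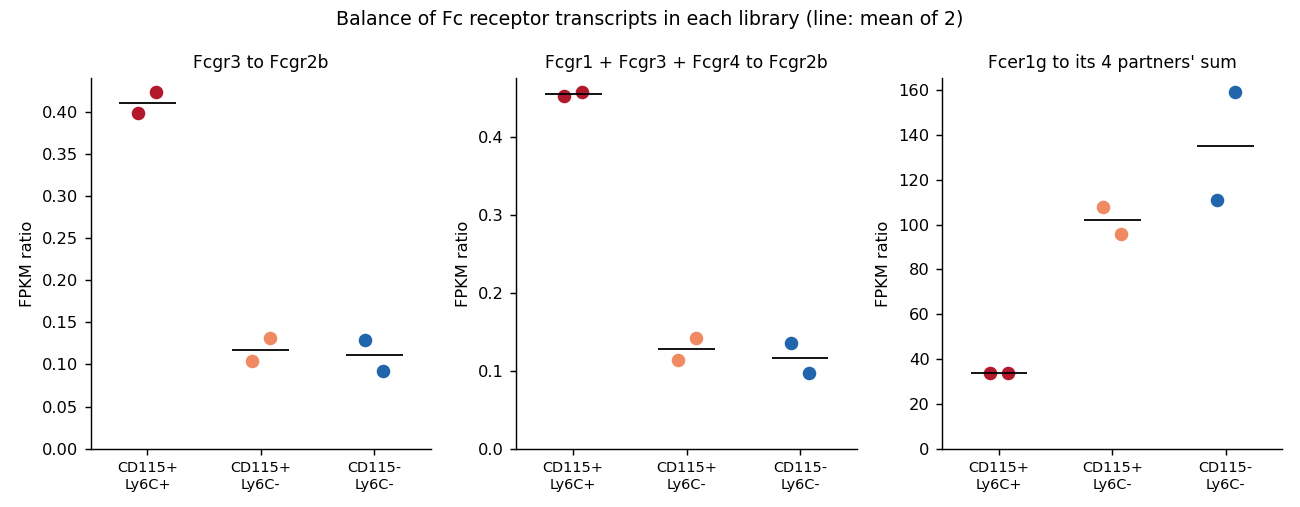
FPKM ratios in each library (points) with the mean of the 2 libraries of a subset (line): Fcgr3 to Fcgr2b, the 3 activating IgG receptors to Fcgr2b, and Fcer1g to the sum of Fcgr1, Fcgr3, Fcgr4 and Fcer1a. The 2 CD115+Ly6C+ libraries are highest in both activating to inhibitory ratios (0.398 and 0.423 for Fcgr3) and lowest in the Fcer1g ratio (33.8 and 33.6), and the other 2 subsets overlap in the first 2 panels.

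Fcgr3 and Fcgr2b are close copies, so the split of reads between them bears on the ratio. Their coding sequences were identical at 660 of 780 aligned bases (84.6%), and the longest run shared by their whole transcripts was 129 bases. Every other pair among the 6 antibody-binding or Fc receptor-like genes was 59.4% to 66.3% identical in coding sequence. The longest runs shared by the transcripts of those pairs were 11 to 14 bases. The stretch below, 90 bases of exon 3 of both genes on the minus strand (chr1:171057703-171057792 in Fcgr3 and chr1:170967992-170968081 in Fcgr2b, GRCm38), is printed because a read within it belongs to either gene, and all its letters are the same in both.
Fcgr3 exon 3: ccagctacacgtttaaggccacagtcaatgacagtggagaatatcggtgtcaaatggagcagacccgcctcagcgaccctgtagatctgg
Fcgr2b exon 3: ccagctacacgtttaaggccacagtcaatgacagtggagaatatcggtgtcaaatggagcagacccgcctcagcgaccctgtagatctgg
Of all windows of 50 bases in the whole Fcgr3 transcript, 12.8% occurred in the Fcgr2b transcript, and of all windows of 100 bases, 3.53%. The expected counts of both genes were whole in 5 of the 6 libraries. In CD115+Ly6C- replicate 1 they were 112.97 for Fcgr3 and 1256.03 for Fcgr2b, which sum to 1369. The read length is not given in the sources used here, and the values of both genes are uncertain to the extent that shared reads were divided by estimation.

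Each member's profile over the 6 libraries was set beside those of 11339 other tested genes by the Euclidean distance between centred log2 CPM values, as a description over 6 libraries that share depth and subset. The nearest profile to Fcer1g was that of Lgals1, which encodes the galactose-binding protein galectin-1 (distance 0.190), followed by Slpi, a secreted protease inhibitor (0.190), and Acer3, an alkaline ceramidase (0.192). Nearest to Fcgr2b were Klrk1, the activating receptor NKG2D (0.111), Birc5, a cell division protein (0.128), and Ifi209, an interferon-inducible gene (0.172). Nearest to Fcgr3 were Mcub (0.384), a subunit of the mitochondrial calcium channel, Tgfbi (0.386), a matrix protein, and Clec5a (0.531), a myeloid lectin receptor. Fcrla was nearest to Crem (0.392), a transcription factor of the cyclic AMP pathway, Tef (0.399), another transcription factor, and Vamp5 (0.405), a vesicle protein. For the rare members the nearest profiles were farther away: 0.576 for Fcgr1 (Asgr2), 0.893 for Fcgr4 (Sirpb1b) and 1.07 for Fcer1a (Arhgap42).

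A list of other activating receptors was drawn up as partners of the gamma chain, but 2 of its tested genes, Clec5a and Cd300lb, are known mainly for pairing with another ITAM adaptor, DAP12. Of its 14 genes, 9 were tested, and 8 of these were higher and 0 lower in CD115+Ly6C+ cells than in CD115-Ly6C- cells (median log2 fold change 2.09; 7 or 8 called without 1 library), against 19.2% and 20.1% of all genes. With Clec5a and Cd300lb left out, 6 of 7 were higher and 0 lower. Clec5a, a lectin receptor of myeloid cells, had 29.8 and 34.2 CPM in CD115+Ly6C+ libraries, 4.51 and 6.58 CPM in CD115+Ly6C- libraries, and 1.81 and 1.99 CPM in CD115-Ly6C- libraries. It rose in all 3 comparisons, by 2.53 (SE 0.24, edgeR adjusted p = 0.00106) for CD115+Ly6C+ over CD115+Ly6C-, 1.54 (SE 0.26, edgeR adjusted p = 0.00793) for CD115+Ly6C- over CD115-Ly6C-, and 4.07 (SE 0.26, edgeR adjusted p = 2.57e-05) for CD115+Ly6C+ over CD115-Ly6C- cells. Cd300lb, an activating receptor of myeloid cells and the most abundant of the list, was higher in CD115+Ly6C+ cells than in CD115-Ly6C- cells (1.37, SE 0.21, edgeR adjusted p = 0.00143), with 119 and 178 CPM in CD115+Ly6C+ libraries and 49.2 and 66.0 CPM in CD115-Ly6C- libraries. Pira2, an activating paired receptor, was higher in CD115+Ly6C+ cells than in CD115-Ly6C- cells by 2.38 (SE 0.24, edgeR adjusted p = 0.000213), but it has near-identical copies, so its value is uncertain. Of the 9, in CD115+Ly6C+ over CD115+Ly6C- cells, 5 were higher (3 without any 1 of the 4 libraries compared) and in CD115+Ly6C- over CD115-Ly6C- cells 2 (1 without CD115+Ly6C- replicate 1), and 0 were lower in either.

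**Figure D4:**
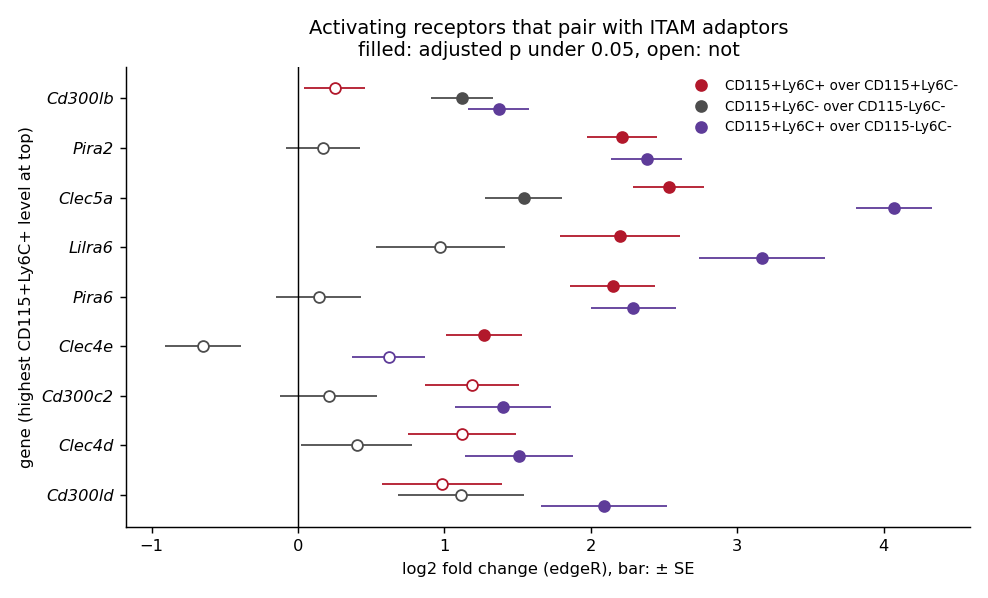
Log2 fold change from edgeR, with bars of 1 SE, of 9 tested activating receptors that pair with an ITAM adaptor, the gamma chain or, for Clec5a and Cd300lb, mainly DAP12, in the 3 comparisons, with filled points for an adjusted p under 0.05. For CD115+Ly6C+ over CD115-Ly6C- cells 8 of 9 points are filled and to the right of 0, the largest being Clec5a at 4.07.

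Among the other ITAM adaptors, Tyrobp, which encodes the adaptor DAP12 of myeloid and natural killer cells, rose with Fcer1g, and Cd247, the zeta chain of T and natural killer cell receptors, fell. Tyrobp had 962 and 959 CPM in CD115+Ly6C+ libraries, 393 and 501 CPM in CD115+Ly6C- libraries, and 302 and 314 CPM in CD115-Ly6C- libraries (log2 fold change of CD115+Ly6C+ over CD115-Ly6C- 1.64, SE 0.13, edgeR adjusted p = 6.11e-05). Cd247 had 0 and 0.120 CPM in CD115+Ly6C+ libraries, 0.734 and 1.33 CPM in CD115+Ly6C- libraries, and 12.9 and 10.1 CPM in CD115-Ly6C- libraries, and was lower in CD115+Ly6C- cells than in CD115-Ly6C- cells by -3.47 (SE 0.47, edgeR adjusted p = 0.00314). Its span overlaps that of Pou2f1. Of the 8 adaptors listed beside Fcer1g, 5 were tested, 1 of them (Hcst) without an ITAM. In CD115+Ly6C+ over CD115-Ly6C- cells 1 of the 5 was higher (20%) and 2 were lower (40%), against 19.2% and 20.1% of all genes.

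The signalling genes downstream of Fc receptors were called in both directions. Of 26 genes, 5 were higher (19.2%, the same share as of all genes) and 10 lower (38.5%, against 20.1% of all genes) in CD115+Ly6C+ cells than in CD115-Ly6C- cells (median log2 fold change -0.17; 10 to 15 called without 1 library, the lowest without CD115-Ly6C- replicate 1). Between the 2 CD115+ subsets 2 were higher and 2 lower in CD115+Ly6C+ cells (1 called without any 1 of the 4 libraries compared), and in CD115+Ly6C- over CD115-Ly6C- cells 1 was higher and 8 were lower (3 to 5 called without any 1 of the 4 libraries compared). Fgr, a Src-family kinase of myeloid cells, fell in CD115+Ly6C+ over CD115-Ly6C- cells, with 11.5 and 9.82 CPM in CD115+Ly6C+ libraries and 28.4 and 33.3 CPM in CD115-Ly6C- libraries (-1.53, SE 0.18, edgeR adjusted p = 0.000397). Lat, an adaptor of T cell and IgE receptor signalling, fell as well, with 1.06 and 1.74 CPM in CD115+Ly6C+ libraries and 20.8 and 16.9 CPM in CD115-Ly6C- libraries (-3.75, SE 0.31, edgeR adjusted p = 7.79e-05). Its relative Lat2, an abundant adaptor, had 378 and 434 CPM in CD115+Ly6C+ libraries, 371 and 362 CPM in CD115+Ly6C- libraries, and 329 and 341 CPM in CD115-Ly6C- libraries, and did not pass in any comparison (edgeR adjusted p = 0.405, 0.443 and 0.0699).

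Among 12 inhibitors of Fc receptor signalling, 1 was higher (8.33%) and 4 were lower (33.3%) in CD115+Ly6C+ cells than in CD115-Ly6C- cells (median log2 fold change -0.37; 4 to 7 called without 1 library). Inpp5d, which encodes SHIP-1, the phosphatase recruited by the Fcgr2b product, had 167 and 145 CPM in CD115+Ly6C+ libraries, 221 and 244 CPM in CD115+Ly6C- libraries, and 335 and 303 CPM in CD115-Ly6C- libraries (CD115+Ly6C+ over CD115-Ly6C- -1.03, SE 0.12, edgeR adjusted p = 0.000361). Dok2, an adaptor that restrains Ras signalling, was also lower, with 2.95 and 5.27 CPM in CD115+Ly6C+ libraries against 68.9 and 61.5 CPM in CD115-Ly6C- libraries (-3.99, SE 0.25, edgeR adjusted p = 2.30e-05), though its span overlaps that of Xpo7. Between the 2 CD115+ subsets 3 were lower in CD115+Ly6C+ cells (0 called without either CD115+Ly6C- library, 1 without either CD115+Ly6C+ library), and in CD115+Ly6C- over CD115-Ly6C- cells 3 were lower (1 called without CD115-Ly6C- replicate 1 and also without either of the CD115+Ly6C- libraries).

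Of 18 tested receptors with an inhibitory ITIM, Fcgr2b not counted, 11 were higher (61.1%) and 4 lower (22.2%, close to the share of all genes) in CD115+Ly6C+ cells than in CD115-Ly6C- cells (median 0.87; 12 to 15 called without 1 library). Cd300a, an inhibitory receptor of myeloid cells, had 176 and 197 CPM in CD115+Ly6C+ libraries and 60.4 and 63.0 CPM in CD115-Ly6C- libraries (1.60, SE 0.14, edgeR adjusted p = 8.65e-05). Pirb, the inhibitory partner of the paired receptors, was also higher (2.06, SE 0.19, edgeR adjusted p = 0.000108), with the same reserve about near-identical copies. Cd72, a B cell coreceptor, fell, with 14.8 and 15.8 CPM in CD115+Ly6C+ libraries, 71.6 and 60.4 CPM in CD115+Ly6C- libraries, and 119 and 129 CPM in CD115-Ly6C- libraries (CD115+Ly6C+ over CD115-Ly6C- -3.02, SE 0.14, edgeR adjusted p = 6.18e-06). Its span overlaps that of Tesk1.

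Of 20 phagocytosis effectors, 9 were higher (45%) and 4 lower (20.0%, close to the share of all genes) in CD115+Ly6C+ cells than in CD115-Ly6C- cells (median 0.44; 9 to 13 called without 1 library). Cybb, the catalytic subunit of the phagocyte oxidase, had 126 and 147 CPM in CD115+Ly6C+ libraries, 52.3 and 65.2 CPM in CD115+Ly6C- libraries, and 39.1 and 46.1 CPM in CD115-Ly6C- libraries (CD115+Ly6C+ over CD115-Ly6C- 1.68, SE 0.15, edgeR adjusted p = 0.000122). Of 13 other immunoglobulin receptors only 5 were tested, of which 1 was higher and 1 lower in that comparison, again close to the share of all genes. The higher one was Fcgrt, the neonatal Fc receptor that salvages IgG inside cells, with 74.1 and 97.9 CPM in CD115+Ly6C+ libraries, 25.7 and 31.0 CPM in CD115+Ly6C- libraries, and 11.4 and 15.02 CPM in CD115-Ly6C- libraries (2.70, SE 0.20, edgeR adjusted p = 4.69e-05). The lower one was Fcrl1, a B cell relative of Fcrla, with 2.45 and 2.63 CPM in CD115+Ly6C+ libraries, 5.19 and 4.56 CPM in CD115+Ly6C- libraries, and 13.3 and 18.95 CPM in CD115-Ly6C- libraries (-2.66, SE 0.28, edgeR adjusted p = 0.000254).

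Some marker lists of other cell types went with the 6 Fc receptor genes that were higher in CD115+Ly6C+ cells, and some against them. In CD115+Ly6C+ over CD115-Ly6C- cells, 19.2% of all genes were called higher and 20.1% lower. Monocyte and late neutrophil granule markers had 100% higher, macrophage markers 80%, and natural killer cell markers 80% lower. Plasmacytoid dendritic cell markers had 33.3% higher and 66.7% lower. Conventional dendritic cell (33.3% and 22.2%) and eosinophil markers (0% and 20%) had lower shares close to that of all genes. Sums here and below are over all genes of a list found in any library, tested or not. Of 13 tested monocyte markers, all 13 were higher in CD115+Ly6C+ cells than in CD115-Ly6C- cells. The list holds Csf1r and Ly6c2, the genes of the sorted proteins, so their direction was set by the sort. The summed level of the 14 genes was 6117 to 6221 FPKM in CD115+Ly6C+ libraries, 1828 to 2184 FPKM in CD115+Ly6C- libraries and 996 to 1161 FPKM in CD115-Ly6C- libraries. Ly6c2 alone had means of 2061, 237 and 85.8 FPKM in these subsets. Ccr2, a chemokine receptor of monocytes, had 567 and 670 CPM in CD115+Ly6C+ libraries, 231 and 248 CPM in CD115+Ly6C- libraries, and 49.1 and 77.8 CPM in CD115-Ly6C- libraries. Of 11 tested late neutrophil granule genes, all 11 were higher in the same comparison, with sums of 9240 to 10110 FPKM in CD115+Ly6C+ libraries, 507 to 2025 FPKM in CD115+Ly6C- libraries and 355 to 782 FPKM in CD115-Ly6C- libraries. Mmp8, a neutrophil collagenase, had 142 and 150 CPM in CD115+Ly6C+ libraries, 10.1 and 32.5 CPM in CD115+Ly6C- libraries, and 6.24 and 4.73 CPM in CD115-Ly6C- libraries. Macrophage markers were also higher in that comparison (4 higher and 0 lower of 5 tested, 1 called without CD115+Ly6C+ replicate 2 or CD115-Ly6C- replicate 1, and 2 without CD115+Ly6C+ replicate 1), with sums of 60.3 to 72.9 FPKM in CD115+Ly6C+ libraries, 45.4 to 64.7 FPKM in CD115+Ly6C- libraries and 40.2 to 49.2 FPKM in CD115-Ly6C- libraries. Markers of natural killer cells, which carry the Fcgr3 product, were lower (0 higher and 4 lower of 5 tested, 3 or 4 called without 1 library), with sums of 74.9 to 78.0 FPKM in CD115+Ly6C+ libraries, 113 to 135 FPKM in CD115+Ly6C- libraries and 286 to 289.5 FPKM in CD115-Ly6C- libraries. Of 9 tested markers of conventional dendritic cells, 3 were higher and 2 lower, with sums of 210.1 to 230.2 FPKM in CD115+Ly6C+ libraries, 226.9 to 228.1 FPKM in CD115+Ly6C- libraries and 375.8 to 402.6 FPKM in CD115-Ly6C- libraries. This list holds the progenitor receptor Flt3, which alone had means of 96.5, 187.4 and 339.5 FPKM in these subsets. Most of the CD115-Ly6C- sum was thus Flt3, and the sums do not describe the other markers. Plasmacytoid dendritic cell markers had 2 higher and 4 lower of 6 tested (5 or 6 called without 1 library), with sums of 389 to 440.2 FPKM in CD115+Ly6C+ libraries, 355.8 to 401.9 FPKM in CD115+Ly6C- libraries and 424.8 to 440.9 FPKM in CD115-Ly6C- libraries. Of 5 tested eosinophil markers, 0 were higher and 1 lower (0 called without CD115-Ly6C- replicate 1, and 2 without CD115-Ly6C- replicate 2), with sums of 6.29 to 52.5 FPKM in CD115+Ly6C+ libraries, 3.14 to 35.7 FPKM in CD115+Ly6C- libraries and 7.26 to 14.7 FPKM in CD115-Ly6C- libraries. The part of these cells' RNA in the differences of Fcer1g, Fcgr1, Fcgr3, Fcgr4 and Fcgr2b was not tested.

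For Fcer1a, the matching list is that of basophil and mast cell markers, the cells that carry the IgE receptor. Of 12, 8 were tested. In CD115+Ly6C+ over CD115-Ly6C- cells 2 were higher (25%) and 2 lower (25%), against 19.2% and 20.1% of all genes. The median log2 fold change of the list was 0.65. Its sums were 49.1 to 99.5 FPKM in CD115+Ly6C+ libraries, 22.3 to 37.1 FPKM in CD115+Ly6C- libraries and 53.4 to 72.6 FPKM in CD115-Ly6C- libraries. The mast cell protease genes Mcpt4, Cma1 and Tpsb2 were not listed in any library. Cpa3, 1 of the 2 lower markers, is a protease of mast cells and basophils that early progenitors also express. It ran against Fcer1a, with 4.18 and 3.35 CPM in CD115+Ly6C+ libraries, 1.89 and 1.96 CPM in CD115+Ly6C- libraries, and 26.0 and 32.1 CPM in CD115-Ly6C- libraries (CD115+Ly6C+ over CD115-Ly6C- -2.94, SE 0.23, edgeR adjusted p = 6.04e-05). For Fcrla, B lineage markers are the matching list: of 9 tested, 1 was higher and 3 were lower in CD115+Ly6C+ cells than in CD115-Ly6C- cells (3 or 4 called without 1 library), with sums of 99.6 to 108 FPKM in CD115+Ly6C+ libraries, 96.1 to 100 FPKM in CD115+Ly6C- libraries and 127 to 130.1 FPKM in CD115-Ly6C- libraries. The B lineage markers thus had 11.1% higher and 33.3% lower, against 19.2% and 20.1% of all genes. Blk, a B cell kinase, had 1.17 and 1.02 CPM in CD115+Ly6C+ libraries, 2.36 and 2.49 CPM in CD115+Ly6C- libraries, and 23.6 and 20.7 CPM in CD115-Ly6C- libraries (-4.33, SE 0.27, edgeR adjusted p = 2.18e-05). The part of such cells in the values of Fcer1a and Fcrla was not tested.

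Of the 7 genes, 5 lie close together on chromosome 1, Fcrla, Fcgr2b, Fcgr4 and Fcgr3 in a row and Fcer1g farther along, with Fcer1a outside the window and Fcgr1 on chromosome 3. From Fcrlb to Adamts4 (chr1:170906715-171262267, GRCm38), 10 of 16 annotated genes were tested, the 5 Fc receptor genes among them. Of the others, Cfap126, Pcp4l1 and Tomm40l were called in none of the 3 comparisons. Sdhc, a subunit of a mitochondrial respiratory complex, was higher in CD115+Ly6C+ cells than in CD115-Ly6C- cells by 0.38 (edgeR adjusted p = 0.0179), a call that was lost without any 1 of the 4 libraries compared (adjusted p up to 0.103). This value was smaller in size than those of the 5 Fc receptor genes in the same comparison, and Fcrla, next to Fcgr2b, had the opposite sign. No Fc receptor gene overlapped another protein-coding gene.

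**Figure D5:**
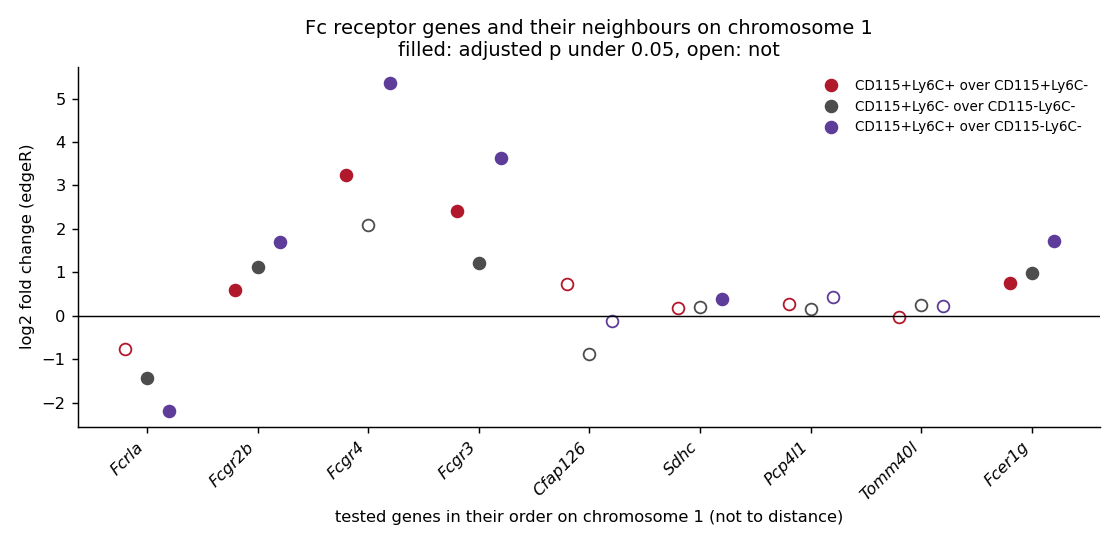
Log2 fold change from edgeR of the 5 Fc receptor genes and 4 other tested genes of the chromosome 1 window, in their order along the chromosome and not to distance, in the 3 comparisons, with filled points for an adjusted p under 0.05. Fcgr2b, Fcgr4, Fcgr3 and Fcer1g lie above 0 in all comparisons, Fcrla lies below 0 in all, and the 4 other genes stay between -0.87 and 0.74.

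Since 6 of the 7 genes were highest in the same subset, the bases just before their starts are shown, as given by RefSeq for GRCm38.p6. Each line holds the 60 bases upstream of the start, read 5′ to 3′ in the direction of the gene, for Fcgr3 at the first of its 2 RefSeq starts. The starts used for Fcgr3 and Fcrla lie inside the gene spans given above. Those spans reach upstream to 171065915 for Fcgr3 and 170932216 for Fcrla, and the bases before these outer ends were not searched. They lie at chr1:171234350-171234409 for Fcer1g, chr3:96293970-96294029 for Fcgr1, chr1:171059404-171059463 for Fcgr3, chr1:173227230-173227289 for Fcer1a, chr1:170976072-170976131 for Fcgr2b and chr1:170927584-170927643 for Fcrla, all on the minus strand, and at chr1:171018866-171018925 on the plus strand for Fcgr4. Capitals mark TTCCTC, which is the PU box GAGGAA of the myeloid factor PU.1 read on the other strand, or, in Fcgr2b, a composite of ETS and IRF sites.
Fcer1g: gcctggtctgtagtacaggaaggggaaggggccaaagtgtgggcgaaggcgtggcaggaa
Fcgr1: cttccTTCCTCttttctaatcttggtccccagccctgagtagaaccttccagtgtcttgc
Fcgr3: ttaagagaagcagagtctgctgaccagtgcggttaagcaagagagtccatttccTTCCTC
Fcgr4: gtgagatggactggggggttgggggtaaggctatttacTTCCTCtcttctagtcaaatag
Fcer1a: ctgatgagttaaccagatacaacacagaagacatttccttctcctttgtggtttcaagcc
Fcgr2b: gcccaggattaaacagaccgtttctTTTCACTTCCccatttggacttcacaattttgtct
Fcrla: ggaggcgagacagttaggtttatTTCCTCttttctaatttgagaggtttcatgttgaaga
Both strands of the 250 bases before the starts used here were searched. GAGGAA occurred in 5 of the 7 genes (Fcgr1, Fcgr3, Fcgr4, Fcrla and, 216 bases upstream, Fcer1a), against 25.9% of 27025 genes. It was thus present in Fcrla, which ran opposite to the others, and its letters were not in the window of Fcer1g or Fcgr2b. The composite of ETS and IRF sites occurred in 1 of 7, Fcgr2b, against 2.68% of genes. TTGCNNAA, part of the site of C/EBP factors, occurred in 2 of 7, Fcgr3 and Fcer1a, against 10.8% of genes, and the B cell octamer ATGCAAAT in 0 of 7, against 1.81%. No 2 of these motifs overlapped in the windows as printed, and each match is a description of the letters.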

How the data were processed

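Polyadenylated RNA of 6 sorted mouse CDP libraries, 2 for each of 3 subsets, was fragmented, copied and amplified by PCR, per the labels' protocols. Reads were processed with Bowtie2, RSEM and mm10, per the submitters' processing notes, with versions, settings, read length and strandedness not given in the sources used here. The authors deposited RSEM expected counts (estimated, 12.4% to 12.7% of them not whole at a tolerance of 1e-06), a gene length and FPKM for each gene in each library, per the file headers, and genes absent from a library's table were taken as 0. FPKM divides by length, so it serves comparison between genes, while fold changes come from counts.

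Expected counts were rounded, and edgeR 4.0.16 (R 4.3.3) tested them with its quasi-likelihood F test over all 6 libraries in 1 fit with TMM scaling, after filterByExpr (minimum count 10, minimum total 15) left 12127 genes. The common dispersion gave a coefficient of variation of 15.2%, with 3 residual degrees of freedom. Benjamini-Hochberg adjustment ran over all genes tested, with a threshold of 0.05, and the SE is the log2 fold change over the square root of F. Where a subset held 1 to 3 counts, the depth-scaled ratio has an exact (Clopper-Pearson) 95% interval. Intervals cover counting error only, since no label mentions molecular identifiers. Scripts were tested on simulated data. Alternatives were edgeR with other scaling, no filter, unrounded counts, fewer libraries or a replicate block, DESeq2 1.42.0, and limma 3.58.1 on log2(FPKM + 1) or log2(FPKM + 0.1). The labels do not say whether same-numbered libraries share an animal or sort, so the replicate block was an alternative only.

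The members and gene lists were chosen with earlier results of these data known. Named list genes are from the 3 with the smallest adjusted p and the 2 with the highest mean FPKM of each list, and for each member the 3 nearest profiles were taken. Lists are described by counts and medians, with no test of the list. Coordinates count from 1. For 2 genes, values of their own are left out here.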

Additional observations from a re-analysis of the deposited data

How the results depend on the processing

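Over 16 alternatives and 3 comparisons, the 7 Fc receptor genes gave 336 values, of which 307 kept both direction and side of the threshold, 27 lost the call and 1 gained it (Fcer1a in CD115+Ly6C- over CD115-Ly6C- with limma on log2(FPKM + 0.1), adjusted p = 0.0495). Fcer1a reversed without 1 library, with values of -0.34 to 1.63 in CD115+Ly6C+ over CD115+Ly6C-, where it had not passed. Leaving out 1 library also reversed 3 values of other genes that had not passed: Cd300lb in CD115+Ly6C+ over CD115+Ly6C- (-0.07 to 0.51), and Pira2 (-0.18 to 0.62) and Pirb (-0.02 to 0.35) in CD115+Ly6C- over CD115-Ly6C-. The cause was not tested. In CD115+Ly6C+ over CD115+Ly6C-, 1164 genes and 4 Fc receptor genes were called. The number of genes was 1810 without the filter, 1812 with DESeq2, 415 with limma on log2(FPKM + 1) without a filter, and 212 to 1154 without 1 library. The number of Fc receptor genes was 1 with limma on log2(FPKM + 1) without a filter and 1 to 4 without 1 library. In CD115+Ly6C- over CD115-Ly6C-, 1844 genes and 4 Fc receptor genes were called, against 469 to 1792 genes and 2 to 4 Fc receptor genes without 1 library. In CD115+Ly6C+ over CD115-Ly6C-, 4768 genes were called, against 3039 to 4634 without 1 library. Without 1 library fewer samples are left, and the lone library of its subset is assumed to vary like the others.

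With TMM-scaled CPM in place of FPKM, which leaves out length, the mean log2 ratio in CD115+Ly6C+ was -1.475 instead of -1.285 for Fcgr3 to Fcgr2b, and -1.29 instead of -1.135 for the summed activating receptors to Fcgr2b. The deviations of same-numbered libraries correlated at -0.00399, -0.0104 and 0.152 over genes. These values cannot tell whether same-numbered libraries share an animal or sort, since spread within each library can mask a shared source. With the replicate block, 965 genes were called in CD115+Ly6C+ over CD115+Ly6C-, 1503 in CD115+Ly6C- over CD115-Ly6C- and 4550 in CD115+Ly6C+ over CD115-Ly6C-, with 4, 4 and 7 Fc receptor genes among them, and no call of an Fc receptor gene changed. Depth limits Fcgr1, Fcgr4 and Fcer1a, which had at most 53 counts in any library.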
